A study of Mus musculus with 6 samples.

Results

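The unfolded protein response and the integrated stress response were followed through 41 genes, chosen by symbol from the 24982 rows of the deposited count matrix. Of these, 21 belonged to the Xbp1 and Atf6 chaperone arm and 20 to the Atf4 amino acid arm. All 41 had a row of their own, and all 41 were among the 12310 genes that passed the filter on low counts. The libraries held poly(A) RNA of keratinocytes sorted from mouse dorsal skin for the tdTomato label and CD49f (integrin alpha 6), 3 from denervated and 3 from normal skin. Each of 3 mice, numbered 890, 892 and 899, gave 1 library per side. On the left side the cutaneous nerves (T3-T12) had been removed by blunt dissection 4 weeks earlier, and on the right side they were left in place. All mice carried the Lgr6-EGFP-Ires-CreERT2 allele together with the R26loxP-stop-loxP-tdTom reporter, and received 20 µg of tamoxifen at postnatal day 42. The Cre is driven by Lgr6, a receptor for R-spondins, so tdTomato marks cells that expressed Lgr6 and their descendants. The series' design text adds GFP, the sign of current Lgr6 expression, to the sort, which the extraction protocol does not mention, so whether descendants without Lgr6 were included is unclear. All mice also received ketamine and xylazine for surgery and meloxicam for 2 days after it, and were housed singly. The labels give neither sex nor strain. They mention no dissection of the right side, so the effects of nerve removal, of the dissection itself and of the side of the body cannot be told apart.

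Secreted and membrane proteins fold in the endoplasmic reticulum (ER), and unfolded proteins there are sensed by the membrane proteins IRE1 (gene Ern1), ATF6 and PERK (gene Eif2ak3). IRE1 splices Xbp1 mRNA and ATF6 is cut in the Golgi, and the resulting transcription factors induce chaperones, disulfide isomerases and the machinery of ER-associated degradation. PERK and GCN2 (gene Eif2ak4), a sensor of amino acid shortage, phosphorylate eIF2, which lowers general translation and raises translation of Atf4 mRNA. ATF4 in turn induces genes of amino acid synthesis, uptake and tRNA charging. Gene-level counts do not separate spliced from unspliced Xbp1 mRNA and say nothing of translation.

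Of the 41 genes, 3 rose on the denervated side, and none fell. They were Xbp1 in the chaperone arm (1.32-fold) and Asns (1.36-fold) and Chac1 (1.67-fold) in the Atf4 arm. The main chaperones and Atf4 itself did not pass the test. The test was edgeR's quasi-likelihood test with the animal as a block, adjusted by Benjamini-Hochberg over all genes tested and called below 0.05. It is called the paired fit. Of all genes tested, 2.88% were called higher and 0.577% lower (3.46% in all), against 4.76% and 10% called higher in the chaperone and Atf4 arms. These shares rest on 1 and 2 genes. At an unadjusted p below 0.05, 7 chaperone arm genes (33.3%) and 8 Atf4 arm genes (40.0%) were higher, against 10.4% of all genes tested. None of the 41 was lower at that level, against 7.86% of all genes. The log2 fold change was above 0 for 19 of 21 chaperone arm genes and 12 of 20 Atf4 arm genes, against 45.3% of all genes tested. The median log2 fold change was 0.12 in the chaperone arm, 0.04 in the Atf4 arm and −0.02 over all genes tested. On library totals in place of TMM factors, these medians were 0.06, −0.02 and −0.09. The sign of the Atf4 arm median thus depended on the scaling, while in both fits it lay above the median of all genes tested. On library totals Xbp1 alone of the 41 was called, against 1.40% of all genes called higher and 0.959% lower. In bulk RNA, fewer cells of a type and less RNA per cell cannot be told apart.

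Library totals ran from 9610071 to 14021730 counts on the denervated and from 13801154 to 26167593 on the normal side. In CPM, counts scaled to library size, 3 counts came to between 0.115 and 0.312, a limit that covers counting error only. The lowest count of any of the 41 genes in any library was 84 (Sdf2l1). The basal keratinocyte markers Krt5, Krt14, Krt15, Itga6, Itgb4, Trp63, Col17a1 and Lgr6 summed to between 44703 and 50467 CPM in denervated and between 47317 and 49822 CPM in normal libraries. The 7 suprabasal markers summed to between 7340 and 9453 against between 9336 and 9550 CPM, and the 8 sebocyte markers to between 913 and 979 against between 977 and 1120 CPM. Fasn (565 to 678 CPM) and Scd1 (250 to 393 CPM) carried most of the sebocyte sum. In the paired fit, 7 of the 8 sebocyte markers had a negative log2 fold change (median −0.31), where 45.3% of all genes tested were above 0. Of these, 3 were lower at an unadjusted p below 0.05 (edgeR), against 7.86% of all genes, and none was called. Plasma cells carry very high Xbp1. Their markers Jchain and Mzb1 and the B cell genes Cd79a and Ms4a1 stayed at or below 0.724 CPM in every library, while Sdc1, which keratinocytes express as well, lay between 593 and 643 CPM in denervated and between 609 and 736 CPM in normal libraries. Sums of the fibroblast, endothelial and melanocyte lists did not exceed 4.58, 2.50 and 3.41 CPM in any library. Pericyte and smooth muscle, myeloid and Langerhans, T cell, and Schwann cell and neuron lists reached 47.2, 151, 157 and 31.9 CPM. Single genes carried 3 of these sums, Cspg4 (up to 41.5 CPM), Thy1 (up to 152 CPM) and Ngfr (up to 30.7 CPM), while Cd3e stayed at or below 3.0, Cd3d at or below 0.725 and Sox10 at or below 0.0483 CPM. Over the 11 marker sums the smallest exact two-sided permutation p was 0.2, adjusted 0.44, where 3 against 3 libraries cannot go below 0.1. That test does not use the pairing by animal. The plasma and B cell, fibroblast, Schwann cell and neuron, and melanocyte sums had their lower value on the denervated side of each animal, and the endothelial sum its higher value. Sdc1 made up nearly all of the plasma and B cell sum (594 to 645 CPM in denervated and 609 to 737 CPM in normal libraries). That sum therefore does not measure plasma or B cells. The part of these cell types in the results was not tested.

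Levels of different genes were compared in TPM as deposited by the authors, which divides by transcript length. The 41 genes spanned more than 2 orders of magnitude, with means over 6 libraries from 7.70 TPM (Trib3) to 2568 TPM (Atf3). Atf3, a stress-induced repressor of the ATF family, stood at rank 70 of 24972 genes by mean TPM. Hspa5, the main ER chaperone BiP, averaged 1124 ± 158 TPM in denervated and 1014 ± 88.9 TPM in normal libraries (SD, n = 3 each). Atf4 was at a like level, with 1139 ± 150 TPM in denervated and 997 ± 48.1 TPM in normal libraries. The calcium-binding chaperone gene Calr followed at 640 ± 108 and 602 ± 80.8 TPM, and the HSP90 paralog gene Hsp90b1 at 408 ± 58.9 and 394 ± 59.5 TPM. The sensor genes lay in the lower part of the range, as did some targets such as Chac1 and Sdf2l1, with 11.6 and 16.1 TPM over all libraries. Ern1 averaged 22.5 ± 2.11 TPM in denervated and 19.1 ± 1.08 TPM in normal libraries, Eif2ak3 12.4 ± 1.80 and 13.6 ± 1.24 TPM, and Eif2ak4 10.3 ± 1.34 and 11.2 ± 2.59 TPM.

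**Figure D1:**
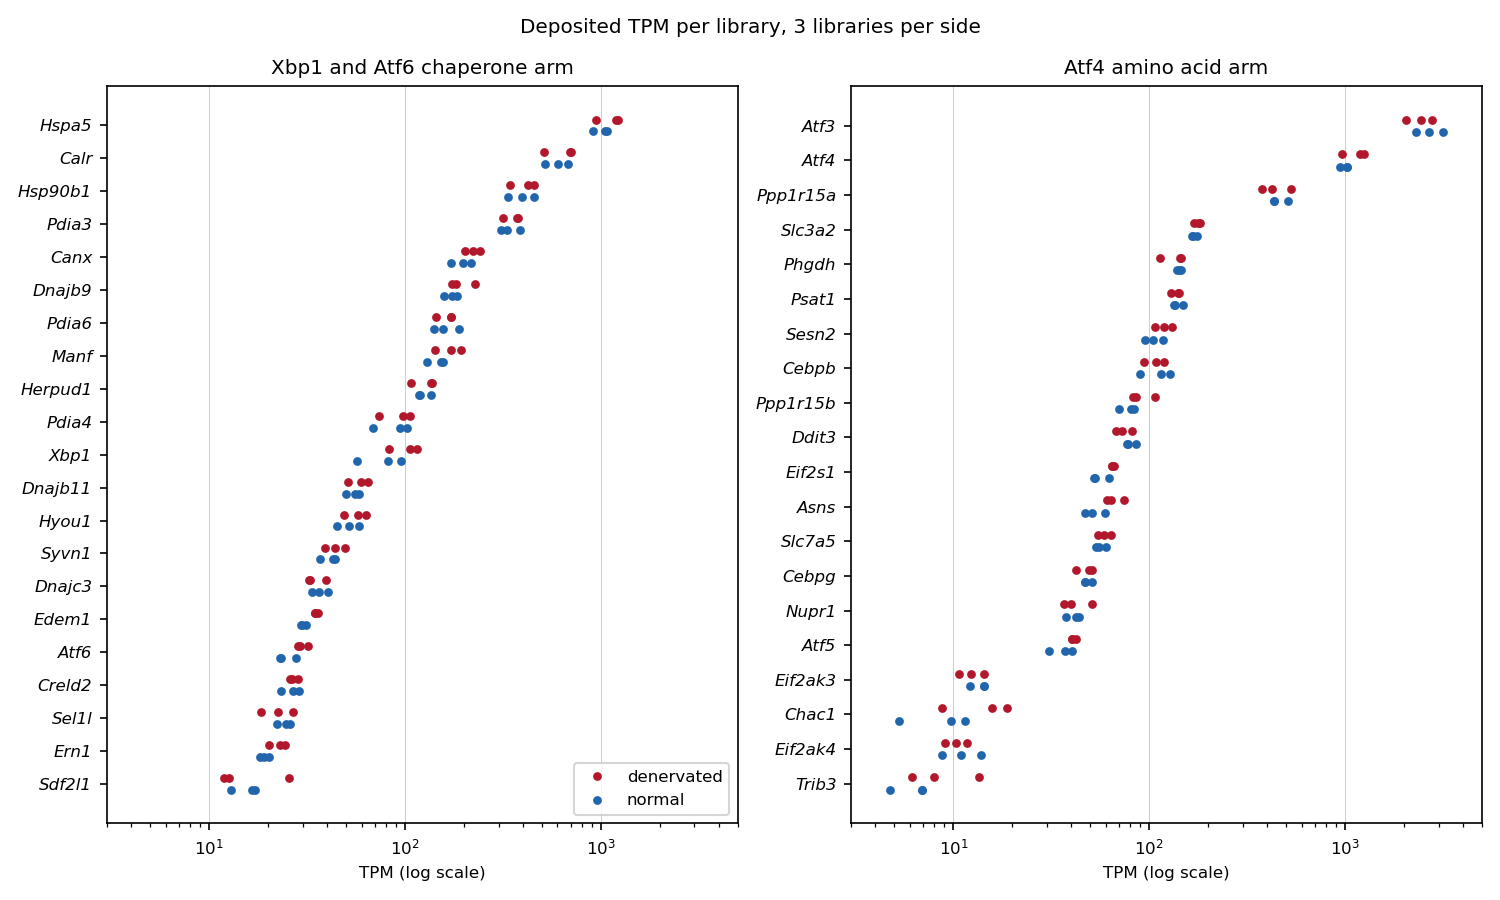
Deposited TPM (log axis) of the 21 chaperone arm genes (left) and the 20 Atf4 arm genes (right), 1 point per library, denervated in red above normal in blue, genes ordered by mean TPM. Hspa5 and Atf3 lead their panels, Sdf2l1 and Trib3 end them, and for most genes the points of the sides interleave.

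The factors of the chaperone arm were the highest of their arm by log2 fold change. Changes between sides below are in CPM after TMM scaling, with libraries in the order of animals 890, 892 and 899. Xbp1 (chr11:5520659-5525893, plus strand, mm10) had 133, 102 and 131 CPM in denervated libraries, against 97.5, 70.4 and 112 CPM in normal libraries. The groups overlapped, since the denervated library of animal 892 lay below the normal library of animal 899, but each animal was higher on its denervated side. The paired log2 fold change of Xbp1 was 0.40 ± 0.08 SE (adjusted p = 0.0189, edgeR). Normal libraries of Xbp1 differed by 22.8% (coefficient of variation), and without the block the adjusted p was 0.368. The call was also lost when animal 892 was left out, with a log2 fold change of 0.36 (adjusted p = 0.112), and with limma on log2(TPM + 1) (adjusted p = 0.125).

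Atf6, the sensor that becomes a transcription factor (chr1:170704674-170867771, minus strand), had 130, 124 and 131 CPM in denervated libraries, against 95.9, 99.2 and 118 CPM in normal libraries. All 3 denervated libraries lay above all 3 normal ones. Its paired log2 fold change was 0.31 ± 0.08 SE and missed the threshold (adjusted p = 0.0527). It passed when animal 899 was left out (0.38, adjusted p = 0.00861), and was further from the threshold without animal 890 (0.24, adjusted p = 0.169) or animal 892 (0.31, adjusted p = 0.203). With DESeq2 in place of edgeR, also with the block, Atf6 was called (adjusted p = 0.0292), where 3.65% of all genes were called higher and 0.349% lower. Ern1, the kinase and RNase IRE1 (chr11:106394650-106487852, minus strand), had 61.8, 56.1 and 60.5 CPM against 50.1, 47.3 and 47.7 CPM. Its groups did not overlap either, and its log2 fold change was 0.30 ± 0.08 SE (adjusted p = 0.0702). Of all genes tested, 9.76% had every denervated library above every normal library, as had 3 of the 21 genes of this arm (14.3%), these 2 and Edem1.

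In the authors' deposited table, whose model is not given in the sources used here, Xbp1 (log2 fold change 0.42, adjusted p = 0.00415) and Atf6 (0.31, adjusted p = 0.0360) were called. So was Ppp1r15b (0.25, adjusted p = 0.0338), and no other of the 36 members with an adjusted p in the authors' deposited table was called there, where 7.27% of 6752 genes were.

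**Figure D2:**
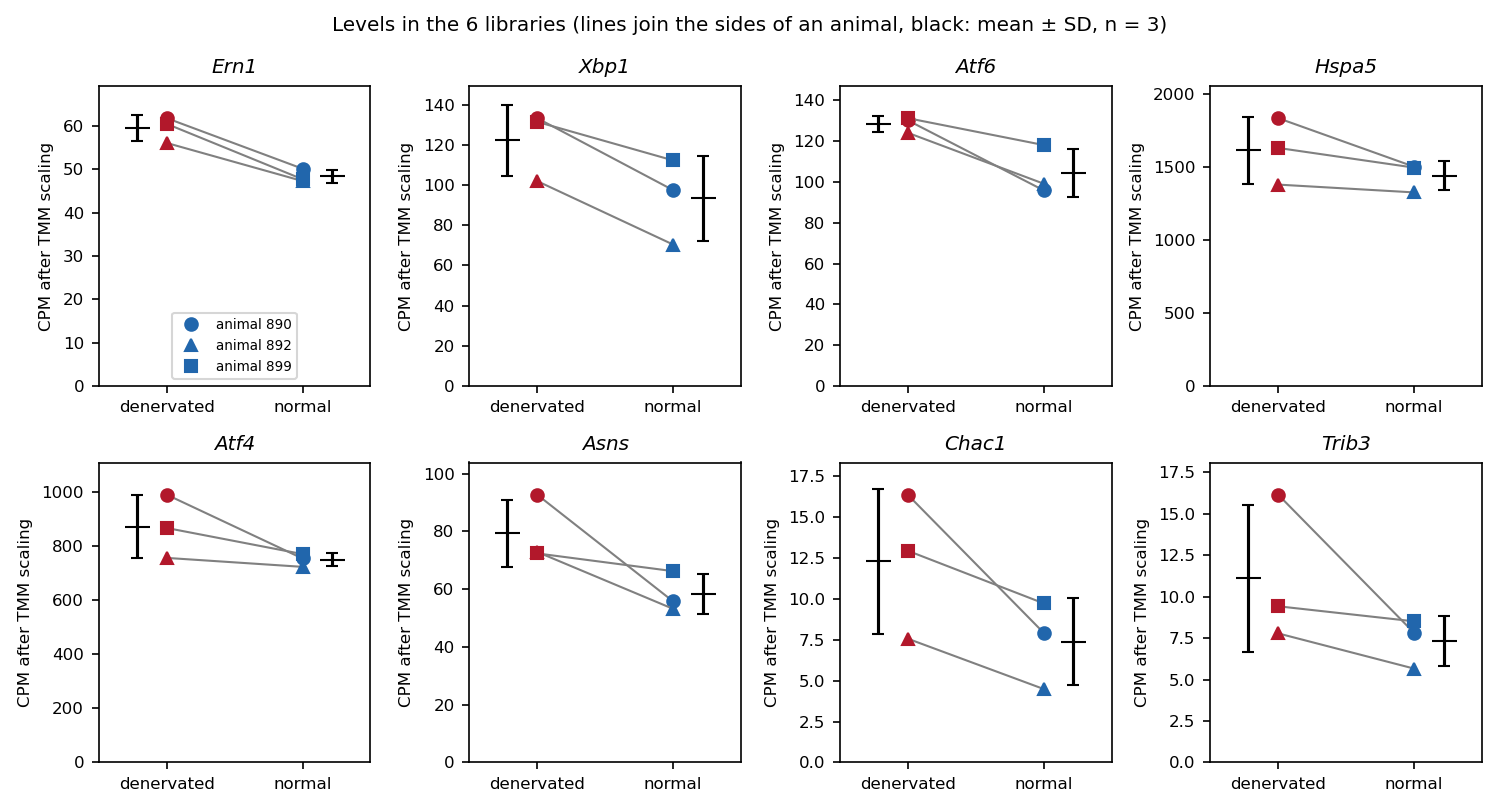
CPM after TMM scaling of 8 genes in the 6 libraries, denervated left and normal right, with a symbol per animal, a line between the sides of an animal and the mean ± SD beside the points (n = 3). All lines fall from left to right, and the points of Ern1, Atf6 and Asns do not overlap between sides.

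Promoters of this arm were searched for the ER stress response element (ERSE), to which ATF6 and XBP1 are known to bind together with NF-Y. RefSeq promoter windows (GRCm38.p6, the mm10 assembly, from 250 bases before to 50 bases after a start) were at hand for 36 of the 41 genes, 18 in each arm. The letters CCAAT and CCACG with 9 bases between them, on either strand, were in the windows of 8 of 18 chaperone arm genes (44.4%), in none of 18 Atf4 arm genes, and in 0.137% of 27025 genes. They are printed 5′ to 3′ along the strand of the match, with the letters searched for in capitals. This shows which chaperone genes have an exact match and the bases between its ends.
Hspa5, chr2:34772025-34772043, plus strand: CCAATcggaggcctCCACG
Hsp90b1, chr10:86705638-86705656, minus strand: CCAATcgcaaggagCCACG
Hsp90b1, chr10:86705533-86705551, plus strand: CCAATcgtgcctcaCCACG
Calr, chr8:84847075-84847093, plus strand: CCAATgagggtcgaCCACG
Canx, chr11:50325800-50325818, minus strand: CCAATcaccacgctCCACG
Creld2, chr15:88819520-88819538, minus strand: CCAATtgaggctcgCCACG
Dnajc3, chr14:118937827-118937845, plus strand: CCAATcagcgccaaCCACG
Pdia6, chr12:17266491-17266509, plus strand: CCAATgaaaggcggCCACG
Syvn1, chr19:6046532-6046550, plus strand: CCAATcggcggtagCCACG

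A related element, ERSE-II (ATTGG and CCACG with 1 base between them), was in the windows of Herpud1 and Dnajb11 and of 0.0444% of all genes. The letters TGACGTGG, the core that XBP1 binds without NF-Y (UPRE), were in no window of either arm and in 0.714% of all genes. The 250 bases before the RefSeq start of Hspa5 show the element in its setting, at positions −65 to −47 from that start. Gene spans in this report come from another annotation, whose Hspa5 start lies further upstream, so the element falls inside the span given below.
Hspa5, chr2:34771840-34772089, plus strand: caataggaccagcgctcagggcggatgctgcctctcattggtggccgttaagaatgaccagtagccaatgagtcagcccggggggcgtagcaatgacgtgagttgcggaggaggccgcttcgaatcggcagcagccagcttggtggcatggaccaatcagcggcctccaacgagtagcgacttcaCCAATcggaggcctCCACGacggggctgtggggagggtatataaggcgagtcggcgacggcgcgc
The 8 genes with an exact ERSE match had a median log2 fold change of 0.10 (from −0.06 to 0.21). The 10 genes of the arm with a window but no exact match also had 0.10 (from −0.10 to 0.40). Only exact letters were searched, so these 10 genes cannot be said to lack the element. A match is a description of letters and not a measured binding site.

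None of the 8 folding chaperones passed the test, and all 8 had a positive log2 fold change, from 0.06 to 0.23. Hspa5 (chr2:34771970-34777547, plus strand) had 1836, 1381 and 1632 CPM in denervated libraries, against 1503, 1327 and 1497 CPM in normal libraries. The sides overlapped, and the higher level stood on the denervated side in 3 of 3 animals by log2 differences of 0.29, 0.06 and 0.12. The paired log2 fold change of Hspa5 was 0.16 ± 0.09 SE (adjusted p = 0.386). Canx, the membrane-bound lectin chaperone calnexin, had 519, 463 and 521 CPM against 430, 388 and 487 CPM (0.21 ± 0.08 SE, adjusted p = 0.174). Manf, a secreted ER stress protein, had 77.8, 57.8 and 63.5 CPM against 58.5, 50.9 and 59.2 CPM (0.23 ± 0.09 SE, adjusted p = 0.169). Canx and Manf overlapped between sides and were higher on the denervated side of each animal.

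The other chaperones stood closer to 0 by log2 fold change, with Hyou1, the BiP nucleotide exchange factor, at 0.15, Calr at 0.10, Hsp90b1 at 0.09, Creld2 at 0.07 and Sdf2l1 at 0.06. Sdf2l1, a partner of ER Hsp40 proteins, was the most scattered of the arm. It had 14.1, 6.55 and 6.43 CPM in denervated libraries, against 8.38, 7.34 and 9.01 CPM in normal libraries, so animal 890 was higher on the denervated side and the other 2 animals lower.

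Among the Hsp40 co-chaperones of BiP, Dnajb9, a classical target of XBP1, had 138, 133 and 160 CPM in denervated libraries, against 125, 120 and 135 CPM in normal libraries. Each animal was higher on its denervated side, with overlap between animals (log2 fold change 0.18 ± 0.07 SE, adjusted p = 0.201). Dnajb11 stood at 0.12, and Dnajc3, the co-chaperone P58IPK that inhibits PERK, at −0.06 with lower levels on the denervated side in 3 of 3 animals. The disulfide isomerase genes Pdia3, Pdia4 and Pdia6 stood at 0.08, 0.08 and 0.05, and none of them moved the same way in all animals. For Pdia6 the log2 differences by animal were 0.27, 0.08 and −0.21.

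In ER-associated degradation, Edem1, which extracts misfolded glycoproteins for disposal, was the steadiest gene of the set. It had 117, 115 and 111 CPM in denervated libraries, against 98.7, 96.5 and 95.7 CPM in normal libraries, without overlap. Its normal libraries varied by 1.61% and its log2 fold change was 0.24 ± 0.07 SE (adjusted p = 0.0989). The ubiquitin ligase gene Syvn1 (HRD1) stood at 0.15, the stress-induced adaptor gene Herpud1 at 0.06 and the HRD1 partner gene Sel1l at −0.10. Sel1l was lower on the denervated side in animal 890 alone, where it had 73.4 against 95.1 CPM.

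Log2 differences in the chaperone arm were larger in animal 890 than in the other animals by their median. The median log2 difference of its 21 genes was 0.25, 0.13 and 0.10 by animal, and 19, 18 and 14 of the 21 genes were higher on the denervated side. Over all genes tested the medians were −0.02, −0.01 and −0.01. The denervated library of animal 890 was the shallowest of the 6, and differences over all genes spread most in that animal (SD of 0.491, against 0.367 and 0.356). The part of depth in these values was not tested. The median of the arm without animal 890 was 0.11, and with library totals 16 rather than 19 of the 21 log2 fold changes were positive. In all, 12 of the 21 genes (57.1%) were higher in 3 of 3 animals, against 19.3% of all genes tested.

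**Figure D3:**
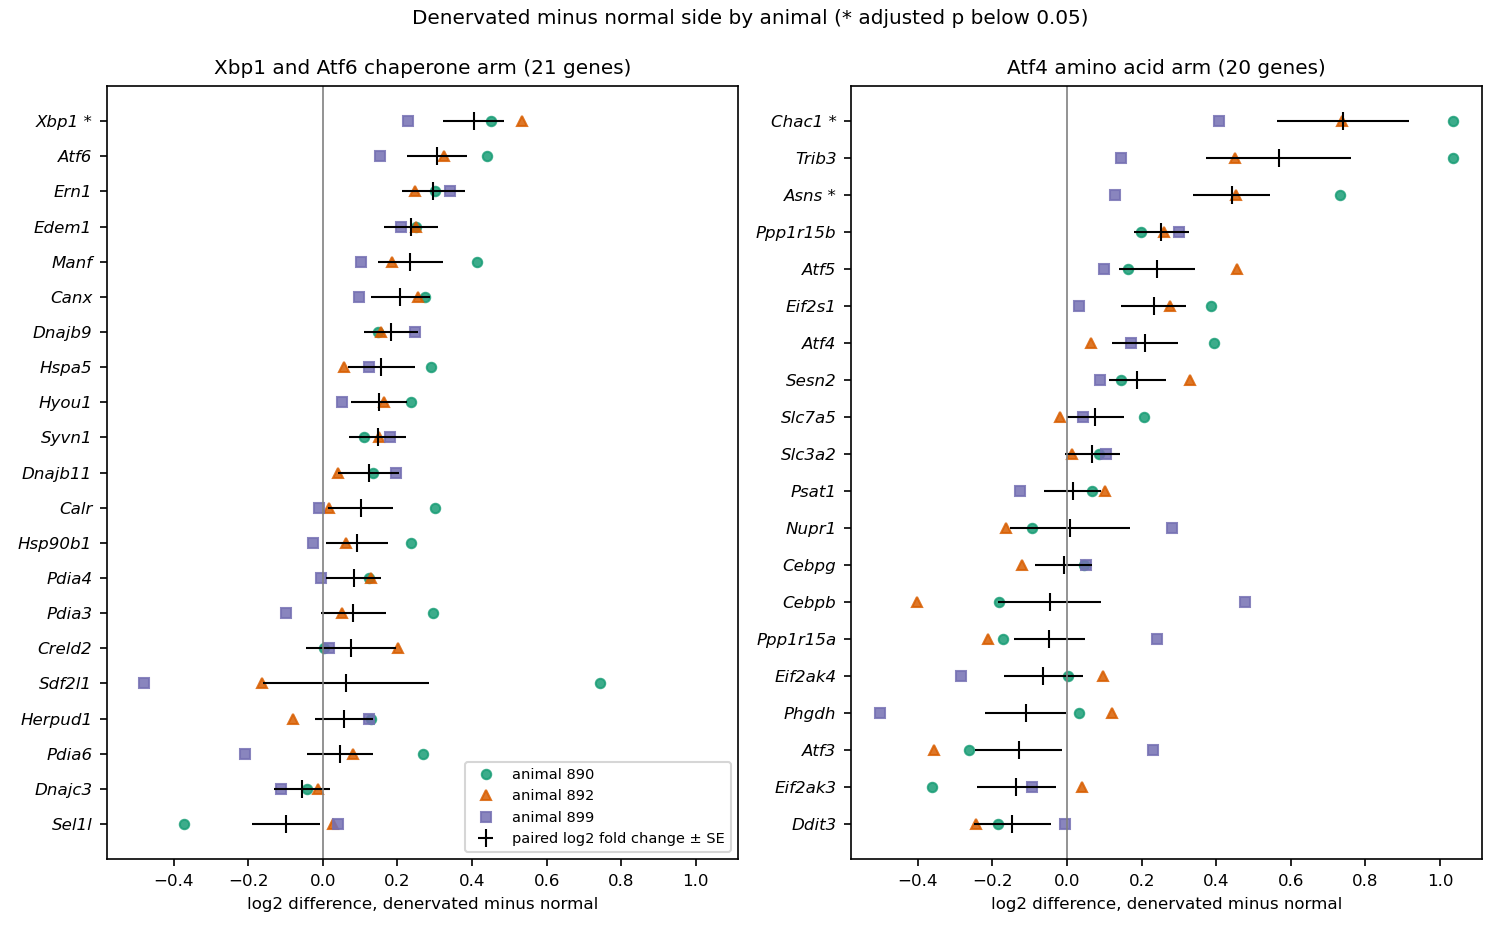
Log2 difference between denervated and normal side (x axis) of each of the 41 genes (y axis) in animals 890, 892 and 899, with the paired log2 fold change ± SE in black and the 3 called genes starred. In the chaperone arm most points lie to the right of 0, while in the Atf4 arm the called genes Chac1 and Asns and the uncalled Trib3 stand apart from the genes that scatter around 0.

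In the Atf4 arm the log2 fold changes of both kinase genes were below 0. Eif2ak3, the kinase PERK (chr6:70844515-70905245, plus strand), had 27.8, 31.9 and 34.5 CPM in denervated libraries, against 35.8, 31.0 and 36.9 CPM in normal libraries (log2 fold change −0.14 ± 0.11 SE, adjusted p = 0.537). Eif2ak4, the kinase GCN2 (chr2:118388618-118475234, plus strand), had 32.9, 29.8 and 36.7 CPM against 32.9, 27.9 and 44.7 CPM (−0.06 ± 0.11 SE, adjusted p = 0.797). Both kinase genes overlapped between sides, and the sign of Eif2ak4 turned without animal 899 (0.05). Eif2s1, the eIF2 subunit that they phosphorylate, had 90.5, 88.7 and 85.9 CPM against 69.2, 73.2 and 84.1 CPM, without overlap (0.23 ± 0.09 SE, adjusted p = 0.166). It was called when animal 899 was left out (0.33, adjusted p = 0.0316), and had an adjusted p of 0.487 without animal 890 (0.16) and of 0.501 without animal 892 (0.23).

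The phosphatase subunits that reverse this phosphorylation differed in pattern. Ppp1r15b, the constitutive subunit CReP, had 278, 263 and 318 CPM in denervated libraries, against 242, 220 and 258 CPM in normal libraries. These groups did not overlap, and the log2 fold change was 0.25 ± 0.07 SE (adjusted p = 0.0768), with a call by DESeq2 with the block (adjusted p = 0.0266). Ppp1r15a, the stress-induced subunit GADD34, had 534, 468 and 611 CPM against 602, 541 and 517 CPM (−0.05). It was lower on the denervated side in animals 890 and 892 and higher in animal 899.

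Atf4 (chr15:80255184-80257541, plus strand), whose protein names this arm, had 992, 758 and 868 CPM in denervated libraries, against 755, 724 and 772 CPM in normal libraries. The sides overlapped through animal 892, and each animal was higher on its denervated side by log2 differences of 0.39, 0.06 and 0.17. The paired log2 fold change of Atf4 was 0.21 ± 0.09 SE (adjusted p = 0.228), and 0.12 without animal 890. Atf5, a related factor under similar translational control, had 41.6, 41.4 and 37.1 CPM against 37.1, 30.2 and 34.7 CPM, a narrow separation (0.24 ± 0.10 SE, adjusted p = 0.228). Ddit3, the ATF4 target CHOP that promotes death under lasting stress (chr10:127290774-127296288, plus strand), had 28.7, 27.1 and 30.6 CPM against 32.7, 32.1 and 30.7 CPM. All 3 denervated libraries of Ddit3 lay below all 3 normal ones, with a log2 difference of only −0.01 in animal 899 and without a call (−0.15 ± 0.10 SE, adjusted p = 0.482). Of all genes tested, 9.21% had every denervated library below every normal library, and Ddit3 was the only member that did.

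Atf3, Cebpb, Ppp1r15a and Nupr1 had the same signs of the log2 difference by animal. Atf3 had 2772, 2277 and 2889 CPM in denervated libraries, against 3326, 2913 and 2462 CPM in normal libraries. The bZIP factor gene Cebpb had 36.2, 32.4 and 39.0 CPM against 41.1, 42.8 and 28.0 CPM. All 4 were lower on the denervated side in animals 890 and 892 and higher in animal 899, and none passed the test. For Nupr1 the differences were small (−0.09, −0.16 and 0.28). Mixed signs were common, since 19.3% of all genes tested were higher and 21.4% lower in 3 of 3 animals. The share with these particular signs was not determined, so whether more members than usual had them is not known. A list of the response to tissue dissociation held 14 genes, among them Fos, Jun and Egr1. The medians of the 14 log2 differences were −0.27, −0.67 and 0.38 in the same animals. Over all genes tested they were −0.02, −0.01 and −0.01. All 14 had their highest value in animal 899, as had 33.0% of all genes tested. Of that list, Klf6 (log2 fold change 0.44, adjusted p = 0.0243) and Fosb (0.40, adjusted p = 0.0405) rose and Socs3 fell (−0.59, adjusted p = 0.0349) in the paired fit. Single animals decided these calls. Leaving out animal 890 ended those of Klf6 (adjusted p = 0.118) and Fosb (0.153), and leaving out animal 892 those of Fosb (0.156) and Socs3 (0.0911). Fosb was also lost on library totals (adjusted p = 0.0694), and Socs3 on the estimated counts (0.0553) and with DESeq2 (0.301). The median log2 fold change of the list was −0.19, and it was −0.13 without animal 890, 0.05 without animal 892 and −0.47 without animal 899, where 11 of its genes were called lower. Its part in the values of Atf3, Cebpb, Ppp1r15a and Nupr1 was not tested. Without animal 899, Atf3 was called lower (log2 fold change −0.31, adjusted p = 0.0229), while it stood at −0.06 without animal 890 (adjusted p = 0.917) and had an adjusted p of 0.999 without animal 892. Cebpg, the dimer partner of ATF4, stood at −0.01.

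Chac1 and Trib3, effectors of ATF4, had the highest log2 fold changes of the set. Chac1, which degrades glutathione (chr2:119351229-119354381, plus strand), had 16.4, 7.56 and 12.9 CPM in denervated libraries, against 7.93, 4.49 and 9.72 CPM in normal libraries. The groups overlapped because animals differed, with animal 892 low on both sides, but the log2 differences within animals were 1.03, 0.74 and 0.41. The paired log2 fold change was 0.74 ± 0.18 SE (adjusted p = 0.0376), and the adjusted p was 0.393 without the block. The counts behind Chac1 ran from 96 to 211. Its call was lost on library totals (adjusted p = 0.0627) and with limma on log2(TPM + 1), and DESeq2 gave it no adjusted p. Leaving out animal 890 gave a log2 fold change of 0.57 (adjusted p = 0.161), and leaving out animal 892 an adjusted p of 0.0528. Trib3, a pseudokinase that restrains ATF4, had 16.1, 7.78 and 9.42 CPM against 7.81, 5.66 and 8.51 CPM. Animal 890 set its size (log2 differences of 1.04, 0.45 and 0.14), and it missed the threshold (0.57 ± 0.19 SE, adjusted p = 0.132). It stood at 0.30 when animal 890 was left out (adjusted p = 0.593) and at 0.63 when animal 892 was (adjusted p = 0.187), and was called when animal 899 was left out (0.77, adjusted p = 0.0311). Sesn2, an inhibitor of mTORC1 that ATF4 induces, had 180, 199 and 201 CPM against 163, 158 and 189 CPM (0.19 ± 0.08 SE, adjusted p = 0.209).

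Of the 5 genes of amino acid supply, Asns rose and the others did not pass. Asns, which makes asparagine (chr6:7675169-7693254, minus strand), had 92.7, 72.9 and 72.3 CPM in denervated libraries, against 55.8, 53.2 and 66.2 CPM in normal libraries, without overlap. Its log2 differences were 0.73, 0.45 and 0.13, and its paired log2 fold change was 0.44 ± 0.10 SE (adjusted p = 0.0349). The call was lost without the block (adjusted p = 0.199), on library totals (adjusted p = 0.0691), on the estimated counts (adjusted p = 0.0810) and with limma on log2(TPM + 1) (adjusted p = 0.209). Leaving out animal 890 gave 0.29 (adjusted p = 0.0957). The serine synthesis genes Psat1 and Phgdh stood at 0.02 and −0.11, and the heavy and light chains of the leucine transporter, Slc3a2 and Slc7a5, at 0.07 and 0.08. Phgdh had 74.9, 83.2 and 56.2 CPM against 73.3, 76.6 and 79.6 CPM, so that its lower mean came from animal 899.

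The C/EBP-ATF response element (CARE), which ATF4 binds as a dimer, was searched as TGATGNAA on either strand. It was in the windows of 5 of 18 Atf4 arm genes (27.8%), in 1 of 18 chaperone arm genes (Herpud1) and in 4.51% of all genes. The matches are printed with 6 bases on each side, since 3 of these genes, Chac1, Trib3 and Asns, had the highest log2 fold changes of the set.
Chac1, chr2:119351043-119351062, minus strand: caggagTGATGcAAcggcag
Trib3, chr2:152344033-152344052, plus strand: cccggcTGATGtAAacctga
Asns, chr6:7693219-7693238, minus strand: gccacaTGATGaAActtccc
Atf3, chr1:191183430-191183449, plus strand: acttggTGATGcAAgtgcga
Nupr1, chr7:126625567-126625586, plus strand: cctgtcTGATGcAAtctggc
The log2 fold changes of these 5 genes were 0.74, 0.57, 0.44, −0.13 and 0.01, and their median of 0.44 stood beside −0.01 for the 13 other Atf4 arm genes with a window. This is a description of genes whose values were known, with no test.

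The 250 bases before the RefSeq starts of the called genes Asns and Chac1 are printed next. The element is close to the start in Asns (positions −23 to −16) and far from it in Chac1 (positions −193 to −186, on the opposite strand). As for Hspa5, the Asns element falls inside the gene span given above, which comes from another annotation.
Asns, chr6:7693210-7693459, minus strand: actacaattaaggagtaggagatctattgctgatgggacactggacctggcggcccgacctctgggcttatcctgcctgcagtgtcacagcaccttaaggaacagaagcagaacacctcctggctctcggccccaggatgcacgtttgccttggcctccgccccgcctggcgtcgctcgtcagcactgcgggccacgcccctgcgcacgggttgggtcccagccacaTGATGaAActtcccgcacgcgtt
Chac1, chr2:119350992-119351241, plus strand: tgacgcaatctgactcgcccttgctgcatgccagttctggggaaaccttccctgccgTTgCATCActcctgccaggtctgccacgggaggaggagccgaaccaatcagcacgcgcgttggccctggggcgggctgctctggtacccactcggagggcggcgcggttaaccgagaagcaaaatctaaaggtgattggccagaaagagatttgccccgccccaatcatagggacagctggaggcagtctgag
Among the other motifs searched, the cyclic AMP response element TGACGTCA was in the window of Ppp1r15a alone and in 2.03% of all genes.

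Other genes of both responses were read from lists written by hand with earlier results of these data known, which need not be complete. Cytosolic aminoacyl-tRNA synthetases charge tRNAs and are induced by ATF4. A list of some of them and of Xpot, which exports tRNA, had a median log2 fold change of 0.22 over 13 genes. Of the 13, 2 were called higher (15.4%) and none lower. The shares of all genes tested, 2.88% called higher and 0.577% lower, stand beside this list and those that follow. Nars, which charges asparagine tRNA, averaged 192 ± 17.4 CPM in denervated and 147 ± 7.71 CPM in normal libraries (log2 fold change 0.39 ± 0.07 SE, adjusted p = 0.0145). Cars, which charges cysteine tRNA, averaged 87.9 ± 13.0 and 62.6 ± 11.0 CPM (0.49 ± 0.10 SE, adjusted p = 0.0211). The calls of Nars and Cars held without each animal in turn and on library totals. They were lost with limma on log2(TPM + 1) and without the block, where no gene of any list was called. The median log2 difference of the 13 genes was 0.25, 0.23 and −0.02 in animals 890, 892 and 899.

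Among 16 tested genes of further amino acid synthesis and transport, the cationic amino acid transporter gene Slc7a1 rose. It averaged 309 ± 26 CPM in denervated and 224 ± 37.3 CPM in normal libraries (0.48 ± 0.08 SE, adjusted p = 0.00885), and the median of the list was −0.04. Of 10 genes of eIF2, eIF2B and the other eIF2 kinases, Eif2s2, the beta subunit of eIF2, rose (151 ± 8.84 against 120 ± 4.60 CPM, 0.33 ± 0.08 SE, adjusted p = 0.0327). That call was lost on library totals (adjusted p = 0.0708) and without animal 890 (0.0526) or 892 (0.182). Of 10 further targets of ATF4 and CHOP, Ddit4, an inhibitor of mTORC1, fell (56.7 ± 7.60 against 77.2 ± 16.2 CPM, −0.44 ± 0.11 SE, adjusted p = 0.0451). Without animal 892 Ddit4 stood at −0.24 (adjusted p = 0.467). The median of that list was −0.08.

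Further ER genes stayed nearer the median of all genes. Of 14 tested genes of ER-associated degradation, Ube2j1, the ER-bound ubiquitin-conjugating enzyme gene, rose (116 ± 5.05 CPM in denervated against 87.6 ± 11.0 CPM in normal libraries, 0.42 ± 0.08 SE, adjusted p = 0.0144), while the median of the list was −0.04. Without animal 892, Ube2j1 had an adjusted p of 0.0616. No gene was called among 18 further ER chaperones and oxidases (median 0.04), where Hspa13 had the smallest p (47.5 ± 5.10 against 39.3 ± 2.69 CPM, adjusted p = 0.122). None was called among 21 genes of ER import and export (median 0.02), with Sec24d closest at an adjusted p of 0.113. None was called among 9 further sensors and proteases (median 0.03), with Crebrf closest at 0.0683, or among 5 mRNAs known as substrates of IRE1 decay (median 0.01), with Sparc closest at 0.332. Cytosolic heat shock genes had a median of 0.11 over 14 genes with none called, and Dnajb1 closest (837 ± 174 against 700 ± 78.2 CPM, adjusted p = 0.172). Mitochondrial chaperones and proteases had a median of −0.09 over 9 genes, none called, with Htra2 closest (13.1 ± 0.285 against 17.0 ± 0.828 CPM, adjusted p = 0.142).

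**Figure D4:**
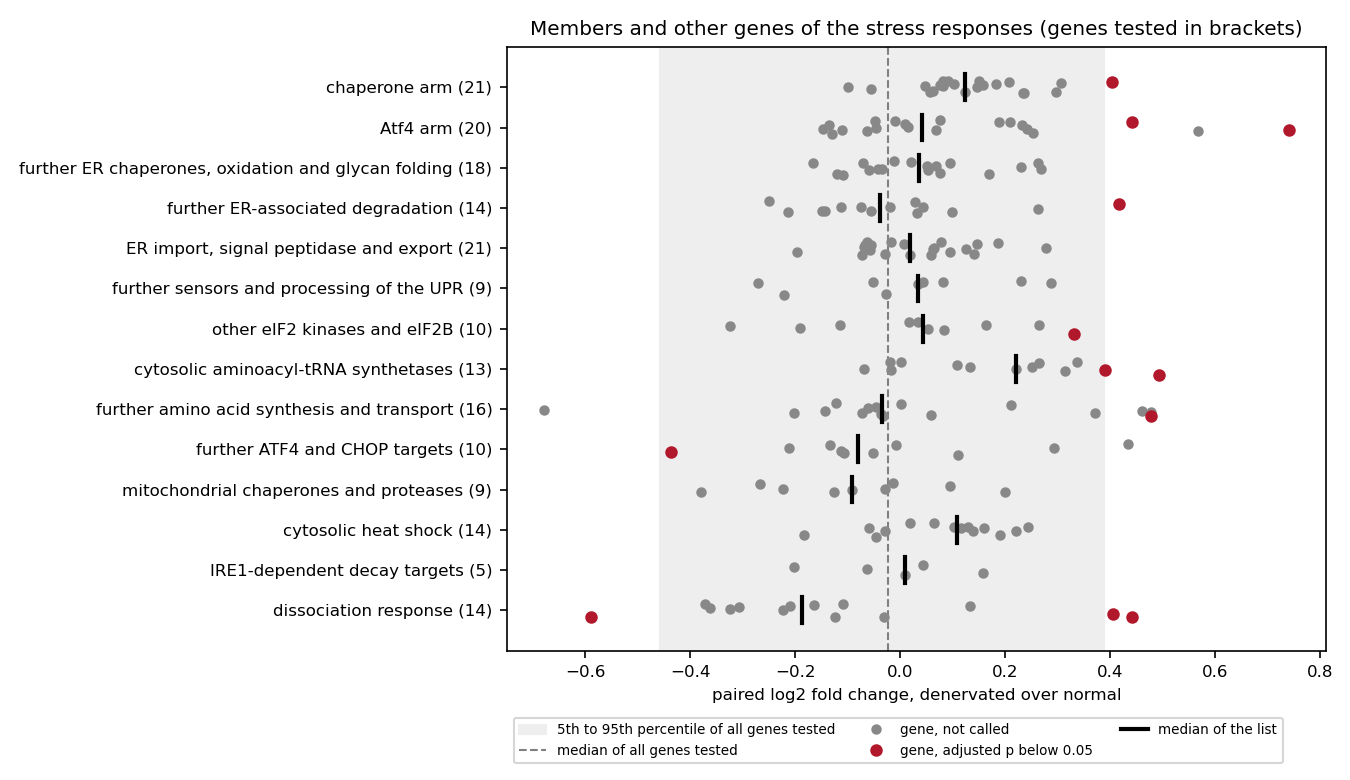
Paired log2 fold change (x axis, denervated over normal) of every tested gene in both arms and in 12 further lists (y axis, genes tested in brackets), called genes in red, a bar at each list's median, and the median and the range from the 5th to the 95th percentile of all genes tested as a dashed line and a grey band. The bar of the list of aminoacyl-tRNA synthetases and Xpot lies at 0.22, that of the chaperone arm at 0.12 and that of the dissociation response at −0.19.

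Genes that lie over another gene limit some of these values. Of the 41 genes, 9 overlap a protein-coding gene in the mm10 annotation, namely Manf, Pdia3, Pdia6, Syvn1, Ppp1r15a, Atf5, Ddit3, Cebpb and Slc7a5. The strand setting of the counts is not given in the sources used here, so reads of such neighbours may not have been told apart. Xbp1, Asns and Chac1 overlap no annotated gene.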

How the data were processed

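The authors deposited raw counts per gene, estimated counts per gene in a quantification file for each library, and TPM, per the file headers. STAR 2.6.1a, Salmon 0.11.2 and the build mm10 are listed in the submitters' processing notes, without roles. For the annotation and the strand setting, the sources used here say nothing. The authors' deposited table holds log2 fold changes (denervated over control), SE, the Wald score, p-values and mean normalised signal, per the file headers. Groups and animals came from titles. Both sides come from 1 mouse per the labels' protocols, and deviations from group means correlated at 0.356, 0.361 and 0.443 for same-animal pairs, across genes. The labels give no batch. The members, roles and lists were chosen with earlier results of these data known.

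Counts were tested with edgeR 4.0.16 (R 4.3.3): TMM, filterByExpr (minimum count 10, total 15), quasi-likelihood, animal as block. Each SE was derived from the fold change and its F statistic. Log2 differences by animal used a prior count of 2. Alternatives were no block, library totals, DESeq2 size factors, other filters, DESeq2 1.42.0, rounded estimated counts, limma 3.58.1 on log2(TPM + 1) or log2(TPM + 0.1) for a mean TPM of at least 1, leaving out each animal, and a threshold of 0.1. On simulated counts with known changes, the fit recovered 28% of 1.3-fold, 66% of 1.5-fold, 92% of 2-fold and 94% of 3-fold changes. Most changes of 1.3-fold were thus missed there. Marker sums are CPM on library totals. By rule, values by library are given for members called, those with an unadjusted p below 0.05, and 8 sensors and regulators. Outside this rule, Atf3, Cebpb, Ppp1r15a, Phgdh and Sdf2l1 are also given by library, for the way their animals differed. From each further list the called genes, or the gene with the smallest p, are named, and other members get at most a few values.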

Additional observations from a re-analysis of the deposited data

How the results depend on the processing

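Without the replicate block, edgeR called 0 genes higher and 0 lower, and 0 members in either arm, with 1537 genes at an unadjusted p below 0.05. The paired fit called 355 higher and 71 lower. Library totals gave 172 higher and 118 lower, with 0 Atf4 arm genes called and an Atf4 arm median of −0.020. Without a filter there were 692 higher and 295 lower, with 3 chaperone and 4 Atf4 arm genes. The chaperone arm had 2 calls with DESeq2 size factors, where 406 of all genes were called higher and 65 lower. It also had 2 with DESeq2, where 449 were called higher and 43 lower, and 2 with a minimum of 1 CPM in every library. Estimated counts gave 46 lower, 1 Atf4 arm gene and an Atf4 arm median of 0.081. Both limma fits gave 0 higher and 1 lower, with 0 members in either arm. At a threshold of 0.1 there were 603 higher and 217 lower, with 4 chaperone arm genes. Leaving out each animal gave 215 to 671 higher and 33 to 305 lower, 0 to 2 chaperone arm genes higher, 0 to 4 Atf4 arm genes higher and 0 to 1 lower (Atf3). The median ran from 0.038 to 0.13 in the Atf4 arm and from 0.11 to 0.17 in the chaperone arm. For Eif2ak4 the log2 fold change ran from −0.13 to 0.051. The causes were not tested. With 3 animals, and counts as low as 84 in a library, log2 fold changes of low genes had the widest errors, up to an SE of 0.22 (Sdf2l1).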
